A study of Saccharomyces cerevisiae with 4 samples.

Results

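The NAD salvage genes are the 9 genes of budding yeast (Saccharomyces cerevisiae) whose products return nicotinamide, nicotinic acid and nicotinamide riboside to NAD: PNC1, NPT1, NMA1, NMA2, QNS1, NRK1, NRT1, URH1 and PNP1. They were chosen by function, as the rows of the deposited table that carry these names, and make up 9 of its 6720 gene rows. Total RNA was sequenced from cells labelled wild type, grown at 30 °C in synthetic complete medium. Non-restricted cells (NR) had 2% glucose and calorie-restricted cells (CR) 0.05% glucose, and each condition has 2 replicates, A and B, labelled biological. Library values are given in the order A, B throughout. No strain background, harvest time or cell density is stated in the labels. Values are FPKM, which divides the fragments of a gene by its length and by the library's mapped fragments, so levels of different genes can be set side by side.

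NAD carries electrons in metabolism and is also consumed by sirtuins, which release nicotinamide from it. In yeast the nicotinamidase Pnc1 turns nicotinamide into nicotinic acid, Npt1 joins nicotinic acid to a phosphoribosyl group, Nma1 or Nma2 adds the adenylyl group, and Qns1 amidates the product to NAD. Nicotinamide riboside enters through the transporter Nrt1 and is phosphorylated by the kinase Nrk1, or is split by Urh1 and Pnp1 to nicotinamide, which then goes through Pnc1. Pnc1 is known in yeast for its role in lifespan under calorie restriction, because nicotinamide inhibits the sirtuin Sir2, and for its activation by the stress regulators Msn2 and Msn4.

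The upstream sequences of NMA1 and NMA2 are shown because these paralogs encode the same step and were both higher in CR. Each is read from the R64 genome (RefSeq) on the gene's own strand, from 5′ to 3′, and runs from 250 to 1 bases before the start codon (NMA1 at chrXII:784663-784912, NMA2 at chrVII:511295-511544, both on the plus strand). Neither stretch holds the stress response element AGGGG, the binding motif of Msn2 and Msn4, so no base is in capitals.
NMA1: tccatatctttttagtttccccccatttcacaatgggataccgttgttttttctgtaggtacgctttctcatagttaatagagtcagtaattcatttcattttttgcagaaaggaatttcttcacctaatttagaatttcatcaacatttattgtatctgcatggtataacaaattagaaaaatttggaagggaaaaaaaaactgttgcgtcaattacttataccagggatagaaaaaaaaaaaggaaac
NMA2: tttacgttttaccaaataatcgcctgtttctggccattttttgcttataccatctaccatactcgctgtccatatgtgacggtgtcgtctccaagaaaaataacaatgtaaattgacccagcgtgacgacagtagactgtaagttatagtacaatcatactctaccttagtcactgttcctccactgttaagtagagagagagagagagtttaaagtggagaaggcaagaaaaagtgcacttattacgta

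Motifs were searched on both strands of the 500 bases before the start of the 8 members other than PNC1. The AGGGG motif was in 0 of the 8 windows, and in 34.1% of the windows of 6000 protein-coding genes. The CACGTG motif of the phosphate regulator Pho4 was in 0 of the 8 and in 6.23% of all. The CCAAT motif of the Hap complex, an activator of respiratory genes, was in 4 of the 8, those of NPT1, NMA1, QNS1 and NRT1, and in 62.4% of all. In the window of 250 bases before to 50 after the start, CCAAT was in 2 of the 8, those of NPT1 and QNS1, and in 43.3% of all. AGGGG and CACGTG were in 0 of the 8 there, and in 21.6% and 2.92% of all. A match of letters is a description of the sequence and does not show that a factor binds there, and the lack of a match says only that the letters are not in the window.

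The median FPKM of gene rows was between 48.6 and 57.6 in the 4 libraries. Low values did not fall on whole multiples of 1 step (57.1% to 68.4% of low values in long genes lay within 0.1 of a multiple of the best step), so read depth was not recovered and is unknown. Rows without a gene ID, which are kept out of the test, held 27.4% to 34.0% of all summed FPKM in 3 libraries but 87.2% in CR B. The root mean square SD between replicates over genes, on the log2(FPKM + 1) scale, was 0.27 in NR and 0.46 in CR. Where 1 library is left out below, the spread comes from the pair of the other group alone and is assumed to hold for the lone library, so tests without a CR library rest on the narrower NR pair and tests without an NR library on the wider CR pair. Marker genes of a cells, a yeast mating type, summed to between 6966 and 63457 FPKM and those of alpha cells to between 46.6 and 62.5 FPKM. Of the 5 a-cell markers, MFA1, MFA2 and BAR1 fell in CR and 0 rose (calls lost without NR A or without NR B, with adjusted p between 0.072 and 0.20, and for MFA2 and BAR1 also without the filter on low values, with adjusted p = 0.084 and 0.099), and the part of this in the results below was not tested. The 6 glucose response genes chosen as a check all changed, with HXT1 and HXT3, which encode low-affinity glucose transporters, lower and ADH2, JEN1, FBP1 and SUC2 higher in CR, of which SUC2 lost its call without NR A or without NR B (adjusted p = 0.084 and 0.055). Beside these counts, limma called 17.7% of all genes tested higher and 13.2% lower in CR. The glucose response genes were chosen with earlier results of these data known, so they are not an independent check. In a bulk sample fewer cells of a type and less RNA per cell cannot be told apart.

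The comparison asked how the transcripts of each salvage step differed between the glucose levels. In CR, PNC1, NMA1 and NMA2 rose, by 2.19-fold, 3.12-fold and 2.29-fold in mean FPKM, while the riboside kinase gene NRK1 and the riboside transporter gene NRT1 fell, to 0.475 and 0.536 of their NR means. NPT1, QNS1, URH1 and PNP1 did not pass. All 9 members passed the filter on low values, and 3 of them were called higher and 2 lower with limma on log2(FPKM + 1) (two-sided test, Benjamini-Hochberg adjusted p under 0.05 over 6355 genes). Of all genes tested 17.7% were called higher and 13.2% lower, 30.9% in all. The split of all calls was 1126 higher and 836 lower as deposited, and 964 and 1171 after scaling to a common median, where the median log2 fold over all genes went from 0.06 to -0.06. Under that scaling, quantile normalization and scaling of gene rows to a common sum, all 5 calls and their directions held. Other settings did not keep them all. Without the filter on low values only NMA1 and NMA2 kept their calls, and losses when an NR library was left out are given with each gene below. The libraries did not overlap for 8 of the 9 members, 4 in each direction, against 73.0% of all genes tested. The median log2 fold of the 9 members was -0.27, beside 0.06 for all genes.

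**Figure D1:**
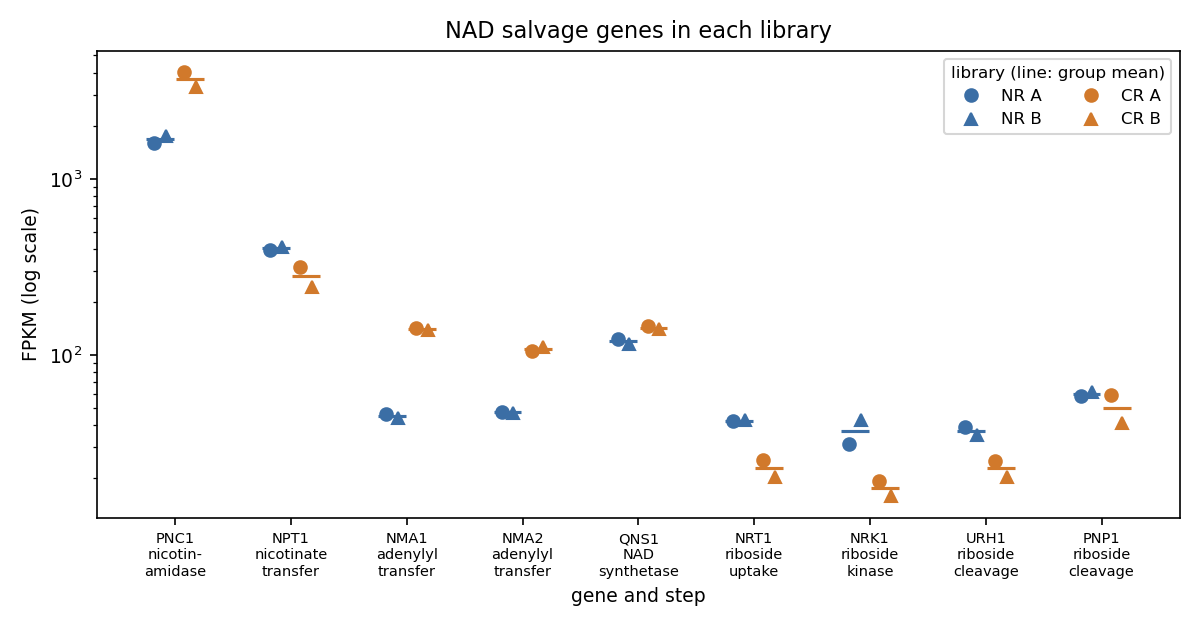
FPKM of the 9 NAD salvage genes (log scale on the y axis) in each library, with NR in blue, CR in orange, replicate A as circles, replicate B as triangles and group means as lines. PNC1 lies above every other member in all 4 libraries, and only PNP1 has overlapping groups.

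PNC1 (YGL037C, chromosome VII, 427297 to 427947 in R64, minus strand, 1 coding exon) was at 1596 and 1749 FPKM in the NR libraries and 4032 and 3307 FPKM in the CR libraries. Both CR libraries lay above both NR libraries, and the CR libraries differed from each other more than the NR libraries did. The means were 1673 ± 108 FPKM in NR and 3670 ± 513 in CR (SD, n = 2 throughout), and the log2 fold was 1.13 (SE 0.28, limma adjusted p = 0.036). PNC1 was among the most abundant transcripts in both conditions, at the percentile 98.0 of the tested genes in both NR libraries and 99.2 in both CR libraries. It made up 67.0% and 68.6% of the summed FPKM of the 9 members in NR, and 82.8% and 81.9% in CR. The sum of the other 8 members was 785 and 801 FPKM in NR and 840 and 732 FPKM in CR, so those groups overlapped. The PNC1 call was lost without NR A (log2 fold 1.06, adjusted p = 0.31), without NR B (1.19, adjusted p = 0.24) and without the filter on low values (adjusted p = 0.054).

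NPT1 (YOR209C, chromosome XV, 736437 to 737726), the gene for nicotinate phosphoribosyltransferase, which acts on the product of Pnc1, was at 396 and 411 FPKM in the NR libraries and 317 and 243 FPKM in the CR libraries. Both CR libraries lay below both NR libraries, but the difference did not pass (log2 fold -0.54, SE 0.23, 95% interval -1.13 to 0.06, limma adjusted p = 0.14). Against the spread of the NR pair alone, CR B by itself gave a log2 fold of -0.73 (adjusted p = 0.016), while CR A by itself gave -0.35 (adjusted p = 0.20). The ratio of PNC1 to NPT1 within a library, which does not depend on how libraries are scaled, was 4.03 and 4.25 in NR and 12.7 and 13.6 in CR. This ratio was higher in both CR libraries, by 1.67 on the log2 scale, where its SD between replicates was 0.05 in NR and 0.07 in CR. An exact permutation test of 2 against 2 libraries, two-sided, gave p = 0.333, the smallest it can give.

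The adenylyltransferase genes NMA1 and NMA2 rose together. NMA1 (YLR328W, chromosome XII, 784913 to 786118, plus strand) was at 46.4 and 43.8 FPKM in the NR libraries and 142.9 and 138.3 FPKM in the CR libraries. It had the largest log2 fold of the 9 members, 1.62 (SE 0.19, limma adjusted p = 0.0067), with CR libraries far above the NR libraries and close to each other. NMA2 (YGR010W, chromosome VII, 511545 to 512732, plus strand) was at 47.6 and 47.0 FPKM in the NR libraries and 104.9 and 111.9 FPKM in the CR libraries. Its groups did not overlap either (log2 fold 1.18, SE 0.19, limma adjusted p = 0.013).

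The coding sequences of NMA1 and NMA2 were identical at 72.1% of 1182 aligned bases, and every 32-base stretch of either is unique in the genome (100% for both). The row of NMA2 overlaps that of the open reading frame YGR011W by 236 bases, and reads of the shared stretch cannot be told apart without strand. YGR011W was at 46.0 and 41.4 FPKM in the NR libraries and 49.6 and 52.6 FPKM in the CR libraries, and did not pass (log2 fold 0.22, limma adjusted p = 0.40). The ratio of NMA1 to NMA2 was 0.974 and 0.933 in NR and 1.36 and 1.24 in CR. NMA1 was thus the slightly lower of the 2 paralogs in both NR libraries and the higher in both CR libraries (0.45 on the log2 scale, exact permutation p = 0.333, two-sided and the smallest possible). Both calls were lost without NR A (log2 fold 1.66 and adjusted p = 0.096 for NMA1, 1.19 and 0.15 for NMA2) and without NR B (1.58 and 0.080, 1.17 and 0.13).

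NMA1 exceeded PNC1 in fold but not in level. The ratio of PNC1 to NMA1 was 34.4 and 39.9 in NR and 28.2 and 23.9 in CR, lower in both CR libraries (-0.51 on the log2 scale, exact permutation p = 0.333, two-sided and the smallest possible).

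**Figure D2:**
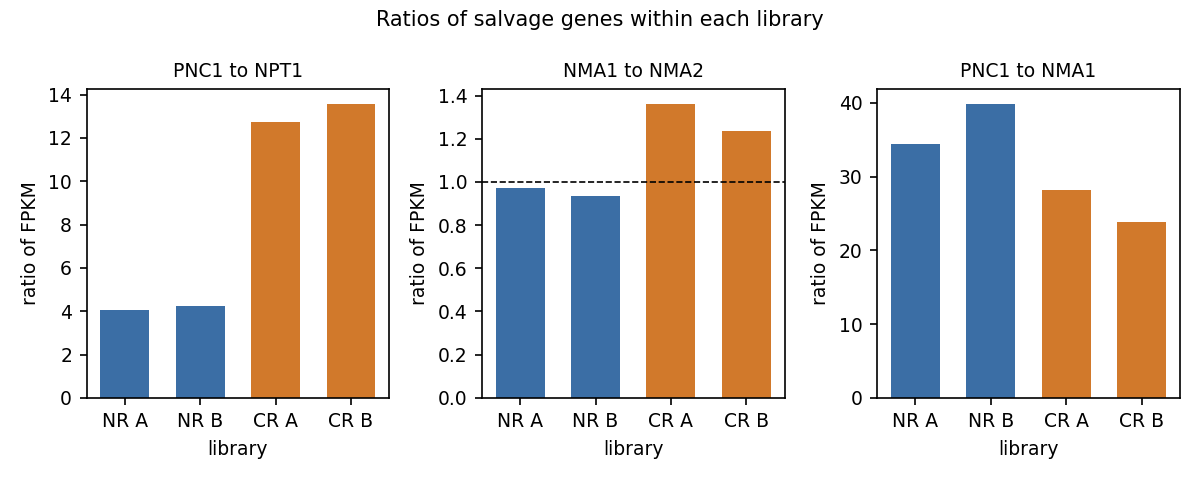
Ratio of FPKM of 2 NAD salvage genes within each library (bars from 0, NR blue, CR orange; the dashed line marks equal levels of NMA1 and NMA2). PNC1 to NPT1 is 4.03 and 4.25 in NR and 12.7 and 13.6 in CR, and PNC1 to NMA1 is lower in both CR libraries.

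QNS1 (YHR074W, chromosome VIII, 246193 to 248337, plus strand), the gene for the glutamine-dependent NAD synthetase of the last step, was at 123.8 and 116.1 FPKM in the NR libraries and 146.3 and 140.1 FPKM in the CR libraries. The CR libraries were a little higher than the NR libraries without overlap, and the difference did not pass (log2 fold 0.25, 95% interval -0.23 to 0.74, limma adjusted p = 0.345).

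Of the 4 genes for the use of nicotinamide riboside, NRT1 and NRK1 fell, beside 13.2% of all genes tested called lower by limma. NRT1 (YOR071C, chromosome XV, 459480 to 461276, minus strand), which encodes the riboside transporter, was at 42.4 and 42.7 FPKM in the NR libraries and 25.4 and 20.2 FPKM in the CR libraries (log2 fold -0.88, SE 0.21, limma adjusted p = 0.033). The NR libraries were nearly equal and both CR libraries lay below them. NRK1 (YNL129W, chromosome XIV, 381480 to 382202, plus strand), which encodes the riboside kinase, was at 31.3 and 42.6 FPKM in the NR libraries and 19.3 and 15.8 FPKM in the CR libraries (log2 fold -1.02, SE 0.25, limma adjusted p = 0.033). Its groups did not overlap, although NR B stood well above NR A.

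NRT1 belongs to a family of thiamine transporters. Its coding sequence was identical to that of THI7 at 83.8% and to that of THI72 at 83.8% of 1797 bases. Of its 32-base stretches 94.1% are unique in the genome. Reads that lie wholly within its other stretches cannot be assigned to a single gene, while longer reads may be. THI7 was at 11.9 and 8.62 FPKM in the NR libraries and 7.08 and 5.34 FPKM in the CR libraries, and THI72 between 6.80 and 10.5 FPKM, all under the NRT1 values. Neither passed (0 of 2 in limma, and 0 at an unadjusted p under 0.05), beside 30.9% of all genes tested that did. The NRK1 and NRT1 calls were lost without NR A (log2 fold -1.24, adjusted p = 0.15, and -0.88, adjusted p = 0.24), without NR B (-0.81, 0.24, and -0.87, 0.21) and without the filter on low values (adjusted p = 0.071 and 0.063).

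URH1 (YDR400W, chromosome IV, 1271063 to 1272085, plus strand), whose nucleosidase also splits uridine, was at 39.3 and 35.2 FPKM in the NR libraries and 25.2 and 20.5 FPKM in the CR libraries. Its CR libraries lay below its NR libraries, and it missed the threshold (log2 fold -0.69, 95% interval -1.23 to -0.15, limma adjusted p = 0.061). It passed as lower under scaling to a common median (-0.81, adjusted p = 0.027) and after quantile normalization (-0.71, adjusted p = 0.034). With the spread of the NR pair alone CR B by itself gave -0.83 (adjusted p = 0.016) and CR A -0.55 (adjusted p = 0.077). PNP1 (YLR209C, chromosome XII, 560797 to 561732, minus strand), the purine nucleoside phosphorylase gene, was at 58.3 and 61.9 FPKM in the NR libraries and 59.4 and 41.3 FPKM in the CR libraries. CR A lay between the NR libraries and only CR B was lower (log2 fold -0.27, 95% interval -0.89 to 0.34, limma adjusted p = 0.42).

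**Figure D3:**
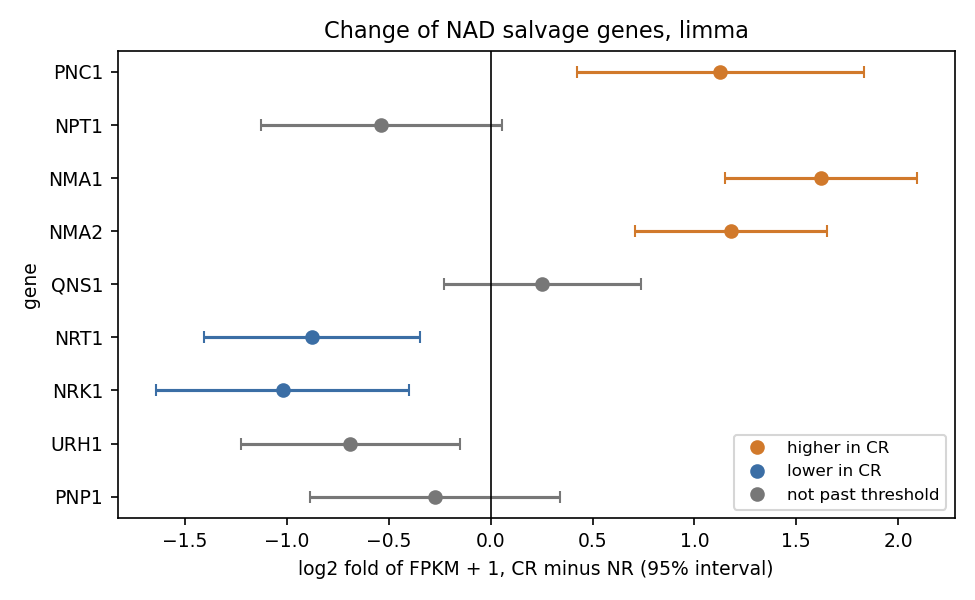
Log2 fold of FPKM + 1, CR minus NR, for the 9 NAD salvage genes in the order of their steps, with 95% intervals from limma before adjustment. PNC1, NMA1 and NMA2 are higher in CR (orange), NRT1 and NRK1 lower (blue), and the 4 grey genes did not pass the adjusted threshold.

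The order of the levels differed between the conditions. In NR, PNC1 (1673 FPKM), NPT1 (404), QNS1 (120) and PNP1 (60.1) led, each apart from the next in both libraries. NMA2, NMA1, NRT1, URH1 and NRK1 followed with means of 47.3, 45.1, 42.6, 37.3 and 37.0 FPKM, where NRK1 ranged from 31.3 to 42.6 FPKM and overlapped URH1 and NRT1. In CR, QNS1 (143.2 ± 4.39) and NMA1 (140.6 ± 3.24) had means closer than either SD. Within each CR library QNS1 lay slightly above NMA1 (146.3 against 142.9 FPKM in A, 140.1 against 138.3 in B). NRT1 (22.8 ± 3.64), URH1 (22.8 ± 3.31) and NRK1 (17.6 ± 2.47) formed the lower end in CR. By rank among the tested genes of the same library, NMA1 stood at the percentiles 42.8 and 43.4 in NR but 73.2 and 73.8 in CR. NRT1 stood at 39.5 and 42.7 in NR and at 22.7 and 20.2 in CR. Without CR B, the library with the high share of FPKM in rows without a gene ID, the log2 folds of PNC1, NMA1, NMA2, NRT1 and NRK1 were 1.27, 1.64, 1.13, -0.72 and -0.89. Their adjusted p values there (0.00088 to 0.026) set 1 CR library against the spread of the NR pair alone, under which calls over all genes went from 1126 higher and 836 lower to 1621 and 1113.

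The 7 genes BNA1 to BNA7 were listed under the making of NAD from tryptophan. That route joins salvage at nicotinic acid mononucleotide, before the steps of Nma1, Nma2 and Qns1. Not every listed gene need encode a step of it. Of the 7, 3 fell and 0 rose (limma, with 4 lower and 0 higher at an unadjusted p under 0.05), with a median log2 fold of -0.84. Limma called 13.2% of all genes tested lower and 17.7% higher. BNA3 alone had a positive log2 fold (0.29, limma adjusted p = 0.36). BNA4, which encodes kynurenine monooxygenase, was at 100.1 and 149.7 FPKM in the NR libraries and 41.4 and 41.4 FPKM in the CR libraries (log2 fold -1.54, SE 0.26, limma adjusted p = 0.014). BNA1, the hydroxyanthranilate dioxygenase gene, fell from 647 and 738 FPKM to 338 and 263, and BNA7, the arylformamidase gene, from 71.4 and 61.9 to 39.6 and 30.1. BNA1 was thus more abundant than every salvage member but PNC1 in both NR libraries. This held in both CR libraries too, where NPT1 came next at 317 and 243 FPKM. Of 4 genes for transporters of NAD and its precursors 0 passed (limma, also 0 at an unadjusted p under 0.05), among them TNA1, the nicotinic acid permease gene, at 142.5 and 123.7 FPKM in the NR libraries and 199.4 and 143.6 FPKM in the CR libraries.

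Genes that act on the nucleotides themselves differed in direction. A list of 6 genes held POF1, which encodes an adenylyltransferase, beside genes for removing phosphate from or cleaving NAD and its mononucleotide. Of the 6, 2 rose (PHO8 and POF1) and 1 fell (median log2 fold 0.58). Of all genes tested, limma called 17.7% higher and 13.2% lower. PHO8, the vacuolar alkaline phosphatase gene, rose from 48.6 and 49.2 FPKM in NR to 99.4 and 119.2 in CR (log2 fold 1.14, limma adjusted p = 0.016). PHO5, the secreted acid phosphatase gene, fell from 35.5 and 33.1 to 18.4 and 16.3 (-0.95, adjusted p = 0.024), and POF1 rose from 39.8 and 33.6 to 80.2 and 64.97. Of 3 NAD kinase genes 1 rose, POS5 for the mitochondrial kinase, from 63.2 and 71.9 FPKM to 186.2 and 228.6 (log2 fold 1.60, SE 0.22, limma adjusted p = 0.0095).

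Of 6 genes for NAD-consuming enzymes 1 rose and 1 fell, beside 17.7% of all genes tested called higher and 13.2% lower. HST2, which encodes a cytoplasmic sirtuin, was at 81.0 and 84.4 FPKM in the NR libraries and 184.6 and 194.6 FPKM in the CR libraries (log2 fold 1.19, limma adjusted p = 0.013), and HST4 fell from 57.6 and 64.5 to 36.7 and 23.4 (-1.03, adjusted p = 0.041). SIR2 was at 20.7 and 15.2 FPKM in the NR libraries and 20.3 and 19.2 FPKM in the CR libraries, with overlapping groups (log2 fold 0.15, 95% interval -0.45 to 0.75). Without NR A or without NR B, none of the 10 genes of these lists and of the regulators below that passed kept its call (adjusted p between 0.080 and 0.27). BNA7, POF1 and HST4 also lost theirs without the filter on low values (adjusted p = 0.070, 0.059 and 0.088).

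**Figure D4:**
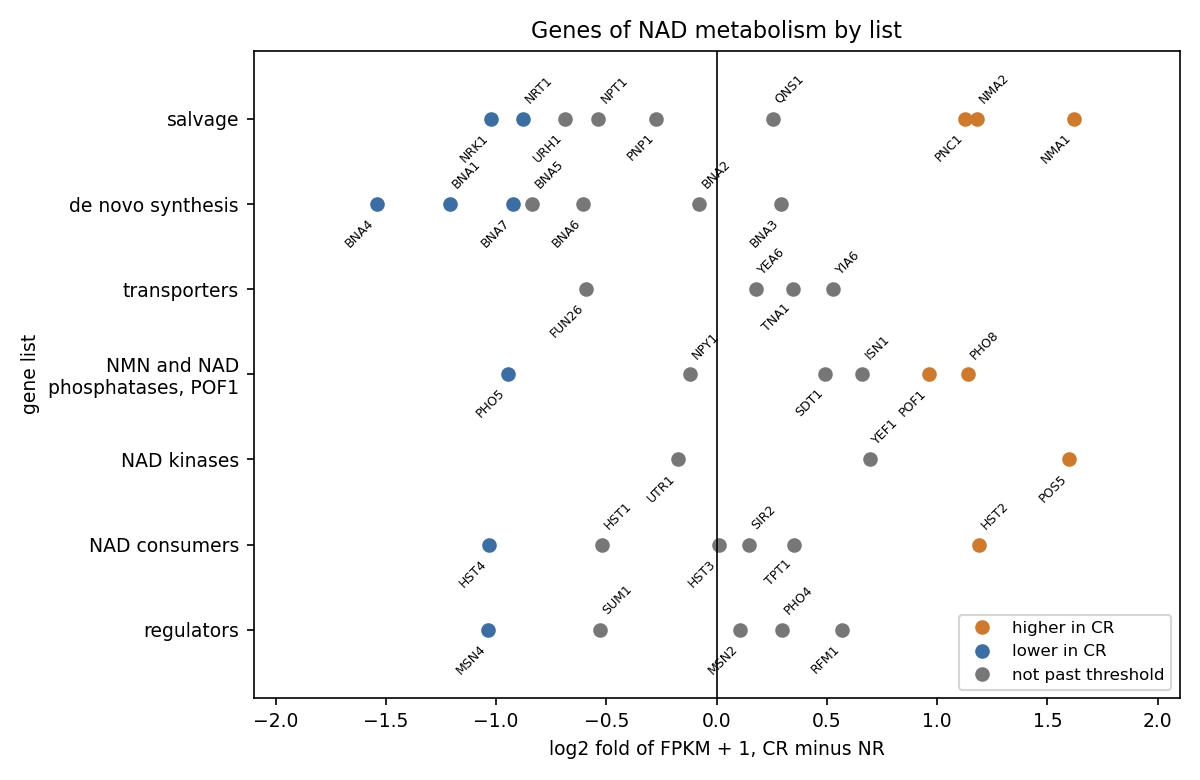
Log2 fold of FPKM + 1, CR minus NR, of each gene in 7 lists of NAD metabolism, 1 dot per gene, orange where called higher, blue where called lower and grey where not past the threshold. Salvage genes are called on both sides of 0, while the called genes of synthesis from tryptophan are all lower.

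Among regulators, 1 of 5 genes changed. Limma called 17.7% of all genes tested higher and 13.2% lower, 30.9% in all. MSN4 RNA fell from 52.5 and 50.7 FPKM in NR to 27.3 and 22.3 in CR (log2 fold -1.03, SE 0.20, limma adjusted p = 0.021). MSN2 was at 36.2 FPKM in both NR libraries and at 49.0 and 31.1 in CR, so its groups overlapped. Of 15 stress genes known as targets of Msn2 and Msn4, 9 rose, HSP26 fell and 5 did not pass, with a median log2 fold of 1.30, beside 1.13 for PNC1 and 0.06 for all genes. HSP12, a membrane stress protein gene, rose from 2215 and 4835 FPKM to 40205 and 37225, DDR2 from 1369 and 1418 to 10757 and 6075, and the catalase gene CTT1 from 179.7 and 198.2 to 513.9 and 420.1. TKL2, DCS2, ALD3, TPS1, TPS2 and PGM2 rose as well, with log2 folds of up to 2.76. Without NR A, TKL2 alone of these 10 kept its call (adjusted p of the others between 0.066 and 0.39), and without NR B, TKL2 and DCS2 did. TPS1 and PGM2 also lost theirs without the filter on low values (adjusted p = 0.064 for both), and PGM2 under scaling to a common median (adjusted p = 0.076). PNC1 and the stress genes are compared with the same NR libraries, and no test between them was made.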

How the data were processed

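Total RNA of 4 yeast libraries (NR A, NR B, CR A, CR B) was analysed from 1 table of FPKM that the authors deposited, with replicates kept apart. All 4 value columns matched a sample by name. The submitters' processing notes name build sacCer2 and the tools Cufflinks 2.0.2, Bowtie without a version and CASAVA 1.8.2. For strand use, multi-mapped reads and filters nothing is stated in the labels. Per the labels' protocols, RNA was extracted with a QIAGEN miRNeasy kit and prepared with an Illumina kit for small RNA. Reads with several matches and overlapping genes could therefore shift single values. FPKM is relative to the library, so a change in a few abundant RNAs moves the others.

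Of 6025 gene IDs found in the R64 annotation, 5989 had the R64 position once 1 was added to the file's start, as did all 9 members, so positions are R64, counted from 1. The 413 rows without a gene ID were left out. The test of CR against NR was limma 3.58.1 (R 4.3.3; moderated, two-sided, intensity trend, no covariate) on log2(FPKM + 1). It covered the 6355 gene rows whose mean reached 1 FPKM, with adjustment over all of them. Log2 folds on this scale understate changes of low genes, while folds are ratios of mean FPKM. Limma p-values set the difference between the groups against the spread between these libraries. That spread is moderated towards the trend over all genes. Ratios within a library were tested by exact permutation. Members, gene lists and tests were chosen with earlier results of these data known. Named were all members and, in each list, every gene past the threshold or, with none, the most abundant. Further genes named beside a result were chosen after their values were seen. Python 3.11.15, pandas 2.3.3, NumPy 2.4.6, Biopython 1.88 (alignment) and matplotlib 3.10.9 were used. Alternatives were other pseudocounts (0.1 and 5), other filters (none, or a mean of 10 FPKM), median scaling, quantile normalization, a replicate block, no trend, leaving out each library and, added after seeing the data, scaling gene rows to a common sum. The upstream sequence of PNC1 is not reported here.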

Additional observations from a re-analysis of the deposited data

Results flagged for a closer look

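Rows without a gene ID, which the comparison does not use, held 87.2% of the summed FPKM in CR B against 34.0% and 29.9% in NR A and NR B and 27.4% in CR A. These are shares of summed FPKM and not of fragments, and the share in 1 CR library stood above that in every other library. The log2 folds of the 5 called salvage genes without CR B were 1.27 for PNC1, 1.64 for NMA1, 1.13 for NMA2, -0.72 for NRT1 and -0.89 for NRK1, given as values since 1 CR library then stands against the NR pair. The cause of the share was not tested.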

How the results depend on the processing

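The 9 salvage genes kept their direction under all 13 alternatives, and each of the 3 ratios under its 6. The filters, the replicate block and the trend setting leave a log2 fold as it was, so they could not reverse a direction. Nor could a pseudocount or the loss of 1 library, for members whose groups did not overlap. The loss of 1 library could not reverse the ratios either, since their groups lay apart. Leaving out 1 library gave between 0 and 3 salvage genes higher and between 0 and 4 lower, with 0 and 0 both without NR A (2 and 1 at an unadjusted p under 0.05 in limma) and without NR B (2 and 0). Over all genes this gave 75 to 1654 higher and 47 to 1668 lower, and the spread then comes from 1 pair of libraries. Without the filter on low values 2 salvage genes were higher and 0 lower (3 and 4 at an unadjusted p under 0.05), and 778 and 464 of all genes, with more genes tested. Same-letter libraries deviated from their group means with a correlation of 0.08 over genes, so the letters were not taken to pair the samples. With the replicate block 2 salvage genes were higher and 3 lower (1150 and 986 of all genes): PNC1 missed the threshold (adjusted p = 0.080) and URH1 passed (adjusted p = 0.049), while the stress genes TPS1 and PGM2 lost their calls (adjusted p = 0.051 and 0.079). MF(ALPHA)2, an alpha-cell marker with a log2 fold of -0.04, turned to 0.05 when gene rows were scaled to a common sum, and ran from -0.30 to 0.23 when 1 library was left out. Scaling to a common median gave 45.2% higher among all calls against 57.4% as deposited. Unknown depth limits what the low values of NRK1, NRT1 and URH1 can show.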

Other observations

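The 5 genes whose pattern over the 4 libraries lay nearest to that of PNC1, by Euclidean distance between log2(FPKM + 1) values centred on each gene's mean, among 5953 genes with a mean of 10 FPKM or more, were YLR177W, CMC1, MET14, YDL124W and OPI1. CMC1 encodes a mitochondrial copper-binding protein, MET14 the adenylylsulfate kinase of sulfate assimilation and OPI1 a repressor of phospholipid genes. Their distances were 0.02, 0.02, 0.03, 0.05 and 0.05. Their log2 folds lay between 1.11 and 1.16, beside 1.13 for PNC1. CMC1 was at 98.0 and 104.9 FPKM in the NR libraries and 245 and 202 FPKM in the CR libraries, with the same order of libraries as PNC1. The genes were picked by nearness to PNC1 in these same values, so the like fold and order follow from that choice. With 4 libraries such likeness is a description only.

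Of the 4 alpha-cell markers 0 passed in limma, with 1, STE3, at an unadjusted p under 0.05. Of all genes tested 30.9% passed. STE3 was at 4.84 and 4.38 FPKM in the NR libraries and 8.36 and 7.91 FPKM in the CR libraries.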
